A study of Homo sapiens with 20 samples.

Results

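The miRNAs of the imprinted DLK1-DIO3 region were taken as every deposited row on the plus strand of chromosome 14 that starts within a fixed range of hg38. The first member, miR-770-5p, starts at position 100852409 and the last, miR-656-3p, ends at 101066786. This rule uses position alone and no measured value. It gave 96 rows, which name 92 mature miRNAs of 52 hairpins, out of 2588 mature miRNAs of 1881 hairpins in the tables. The data were 20 small RNA libraries of 2 human lines, HCT116 (colon cancer) and HEK293E (a derivative of an embryonic kidney line). In both lines DROSHA, the nuclear nuclease that cuts miRNA hairpins out of their primary transcripts, had been knocked out, and the knockout cells were then given back full-length DROSHA or the shorter form DROSHA-p140, with 3 libraries per form and line. Wild-type HCT116 cells were kept for 72 hr with 9.1% or with 0.1% fetal bovine serum (FBS), again with 3 libraries each. A single further library was made from wild-type HCT116 cells that were not treated and whose serum is not named, and another from HCT116 knockout cells that expressed GFP. Every rescued and GFP library thus carries the knockout, and every serum library is wild type. Whether the knockout cells of a line were a single clone is not stated in the labels.

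Genes of the DLK1-DIO3 region are expressed from either the maternal or the paternal chromosome. The protein-coding genes DLK1, RTL1 and DIO3 are read from the paternal chromosome, and a chain of long noncoding RNAs (MEG3, MEG8, MEG9), small nucleolar RNAs and miRNA hairpins from the maternal one. Its miRNAs are known for high levels in placenta, embryo, brain and developing muscle, and are low or silent in many adult epithelia. The hairpins are thought to be carried by long host transcripts, from which DROSHA releases them one after another.

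By position the members fall into an upstream part and a dense block. The upstream part has 18 members, which are miR-770 in MEG3, miR-493, miR-337 and miR-665 between MEG3 and RTL1, miR-431, miR-433, miR-127, miR-432 and miR-136 opposite the RTL1 exon, and miR-370. The block runs from miR-379 to miR-656 over 44716 bases and holds the other 74 members, in 78 rows. In the GENCODE 29 models of hg38, 59 of the 92 members lay within an intron of a long noncoding gene of the same strand, 21 of them in MEG8, 11 in MIR381HG and 10 in MEG9 alone. The 2 arms of miR-410 lay in a MEG9 exon, 1 member (miR-770-5p) was exonic in some MEG3 transcripts and intronic in others, and 30 members had no annotated host.

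RefSeq (GRCh38.p14) gave a mature sequence for 91 of the 92 members, the exception being miR-668-3p. The sequences below are those on which the results turn, written 5′ to 3′ with the seed, bases 2 to 8, in capitals. They include both members called lower in 0.1% FBS, the members that share their seeds, the most abundant members, and the one with the most reads in HEK293E cells.
miR-485-3p: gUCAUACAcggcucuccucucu
miR-539-3p: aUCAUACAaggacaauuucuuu
miR-154-3p: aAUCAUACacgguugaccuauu
miR-487a-3p: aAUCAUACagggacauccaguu
miR-376a-3p: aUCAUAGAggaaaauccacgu
miR-376b-3p: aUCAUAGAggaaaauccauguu
miR-376c-3p: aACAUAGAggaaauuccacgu
miR-495-3p: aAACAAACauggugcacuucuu
miR-329-3p: aACACACCugguuaaccucuuu
miR-369-3p: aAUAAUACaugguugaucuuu
The 91 sequences held 80 distinct seeds, and 10 of these seeds were shared by 2 or more members, 21 in all. The shared seeds join miR-485-3p with miR-539-3p, miR-154-3p with miR-487a-3p, miR-376a-3p with miR-376b-3p, and miR-381-3p with miR-300. Some members share a seed with a miRNA from elsewhere in the genome. In 9.1% FBS miR-329-3p had 105 reads against 997 of miR-362-3p, which has the same seed ACACACC, and miR-655-3p had 64 against 319 of miR-374c-5p with the seed UAAUACA. The median GC content was 45.5% over the members and 52.2% over the 2281 miRNAs of the tables that have a sequence.

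Near-identical copies limit what can be said of single hairpins. The 4 members miR-329-5p, miR-329-3p, miR-376a-3p and miR-1185-5p are each listed under 2 hairpins with equal counts, and each was counted once. The hairpins of miR-329 show how alike the copies are, with both mature arms in capitals.
MIR329-1: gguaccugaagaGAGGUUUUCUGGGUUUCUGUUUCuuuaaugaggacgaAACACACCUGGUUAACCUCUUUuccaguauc
MIR329-2: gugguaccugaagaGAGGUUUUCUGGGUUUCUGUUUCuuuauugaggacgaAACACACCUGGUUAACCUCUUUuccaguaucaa
MIR329-1 lies at chr14:101026785-101026864 and MIR329-2 at chr14:101027100-101027183, both on the plus strand within a MEG8 intron. The split of reads among miR-376a, miR-376b and miR-376c is likewise uncertain. In the serum libraries miR-376b-5p had 3, 2, 7, 6, 5 and 5 reads and miR-376c-5p had 3, 2, 8, 6, 5 and 5.

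Levels are given in CPM, the reads of a miRNA per 1000000 reads of all miRNAs in that library, and intervals are 95% exact (Clopper-Pearson) ones that cover counting error only. Library totals ran from 38288 reads in the knockout with GFP to 2822317 in 0.1% FBS replicate 3, so the reads worth 3 counts, the limit that a count of 0 allows, ran from 78.4 down to 1.06 CPM. Nothing in the labels says that replicates came from separate cultures, so the p-values cover only the spread of these libraries, which may be technical. Fewer expressing cells and less RNA per cell cannot be told apart in bulk RNA. The 15 colon epithelium markers (the miR-200 family, miR-192, miR-194 and miR-215) summed to 40879 to 53467 CPM in the wild-type HCT116 libraries, 5041 in the knockout with GFP, 335.4 to 577 in the rescued HCT116 libraries and 519 to 704 in HEK293E. The gap to the rescued HCT116 libraries lay mostly in the miR-200 family. With full-length DROSHA miR-200c-3p had 440 of 2430711 reads, against 108929 of 5542498 in 9.1% FBS. Of the same totals miR-194-5p had 397 and 646, so its CPM was not lower, nor was it with p140. In CPM miR-192-5p was near its 9.1% FBS level with full-length DROSHA and lower with p140. Both miR-194-5p and miR-192-5p were lower than in 0.1% FBS.

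The cluster was a minor part of the small RNA in every library. Its members had 4633 reads over the 20 libraries, and 4102 of these came from the 6 serum libraries. A read was seen for 85 of the 92 members in at least 1 library, 18 members reached 100 reads in all and 39 stayed under 10. Of the 92, 28 members were read in 10 or more libraries. The 7 with no read anywhere were miR-770-5p, miR-665, miR-431-3p, both arms of miR-433, miR-432-3p and miR-370-5p, all of the upstream part.

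In 1 library the block stood apart from its neighbours, and the sums and tests that rest on it are given with and without the difference. In HCT116 p140 replicate 1 all 78 rows of the block had at least 1 read and 63 had exactly 1, while 1 of the 18 upstream members had a read. The other rescued HCT116 libraries had reads in 18 to 35 block rows, and no other of the 20 libraries had more than 61. Read only in that library were 8 members, among them miR-410-5p, miR-656-5p, miR-134-3p and miR-300, which were chosen for naming after their values were seen. Its 3p-arm share was 58.3% against 79.2% to 87.8% in the other 5 rescued HCT116 libraries. When 1 read was subtracted from each block row the library's cluster sum went from 102 reads to 28, and its members with a read from 75 to 16. The longest such run elsewhere was of 55 rows, 47 at exactly 1 read, on the plus strand of chromosome 19 in 9.1% FBS replicate 3. The cause was not tested, since the tables hold counts and no alignments.

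**Figure D1:**
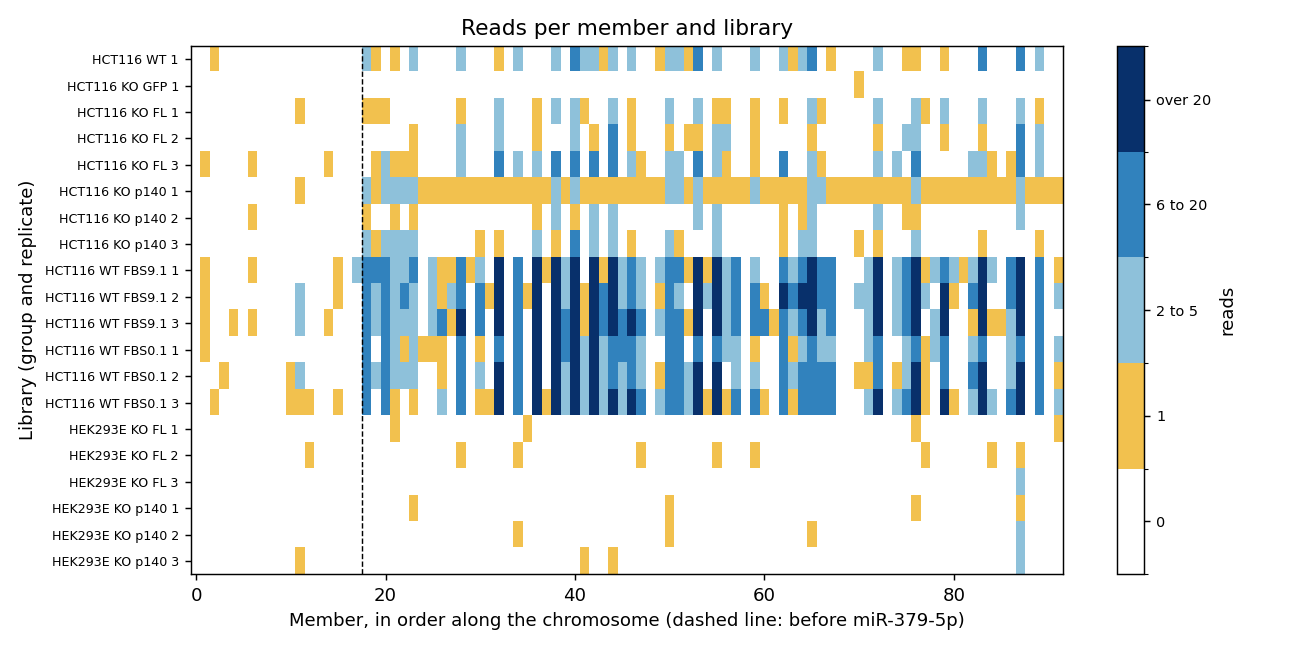
Reads of each of the 92 members (columns, in chromosomal order) in each of the 20 libraries (rows), in 5 colour classes from 0 to over 20 reads. HCT116 p140 replicate 1 shows a continuous band, mostly at exactly 1 read, that starts at miR-379-5p, while the 18 upstream members to the left of the dashed line are nearly empty in every library.

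Wild-type HCT116 cells in 9.1% FBS had the highest summed cluster level of the 8 groups. The 3 libraries gave 411, 436 and 426 CPM (718, 815 and 821 reads), a mean of 424 ± 12.4 (SD, n = 3). Serum-starved cells came next with 225, 243 and 270 CPM (397, 590 and 761 reads), 246 ± 22.6 (SD, n = 3). The untreated wild-type library held 101 cluster reads of 856658, or 118 CPM (interval 96.0 to 143), below all 6 serum libraries.

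The rescued HCT116 libraries were lower than the serum libraries, apart from 1. With full-length DROSHA the sums were 58.0, 51.5 and 157 CPM (46, 45 and 120 reads), 88.9 ± 59.2 (SD, n = 3), and replicate 3 stood above the others. With p140 they were 332, 94.9 and 168 CPM (102, 29 and 55 reads), 198 ± 121 (SD, n = 3), and the highest was the library with the unbroken run. After the subtraction it held 91.2 CPM and the p140 mean was 118 ± 43.4 (SD, n = 3). The part that the low miR-200 family of the rescued cells has in the distance from wild type was not tested.

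HEK293E cells had almost no cluster reads. With full-length DROSHA the libraries held 4, 9 and 2 reads, or 17.8, 38.6 and 5.96 CPM, 20.8 ± 16.5 (SD, n = 3). With p140 they held 4, 7 and 6 reads, or 29.6, 37.8 and 24.4 CPM, 30.6 ± 6.77 (SD, n = 3). Over all 6 libraries 32 of 1359222 reads fell in the cluster, 23.5 CPM (interval 16.1 to 33.2), spread over 19 members. The 5 miRNAs of miR-345, miR-342 and miR-151b, which lie on the same chromosome arm outside the imprinted range, were at 3597 ± 442 CPM in HEK293E with full-length DROSHA and 1289 ± 74.9 in HCT116 (SD, n = 3 each).

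Knockout cells with GFP had a single cluster read, of miR-668-3p, among 38288, which is 26.1 CPM with an interval from 0.661 to 145.5. At the wild-type level 4.51 reads would have been expected, and a difference in CPM was not shown at this depth. The wild-type to knockout ratio was 4.51 with an interval from 0.792 to 180.04. Per read of a list of 20 DROSHA-independent miRNAs, which made up 1.27% of wild-type reads and 69.7% of those of the knockout with GFP, the ratio was 249 with an interval from 43.6 to 9918. Each group here is 1 library, so neither ratio has a replicate check.

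**Figure D2:**
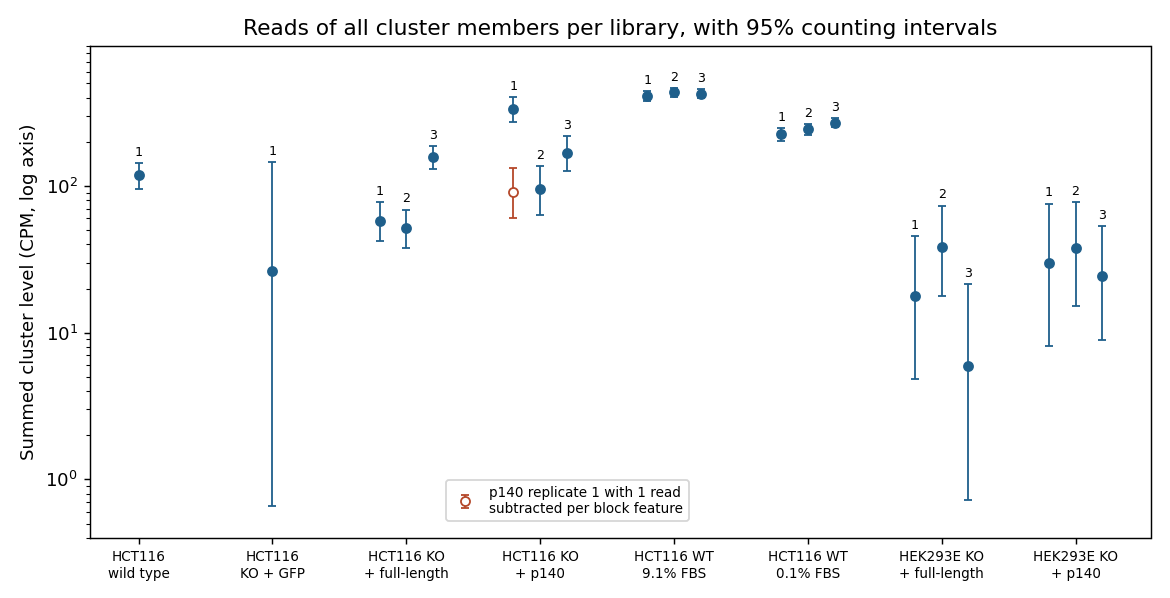
Summed CPM of the cluster (log axis) in each library of the 8 groups. Points are libraries with their replicate number, bars are 95% exact counting intervals, and the open circle is HCT116 p140 replicate 1 after 1 read was subtracted from each block row. The 9.1% FBS libraries sit between 411 and 436 CPM, and the HEK293E libraries at or under 38.6 CPM.

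The number of members with a read was compared at 1 depth. At a common depth of 135085 reads, the smallest rescued library, 27.0 to 27.5 members would be expected with a read in 9.1% FBS, 19.2 to 20.6 in 0.1% FBS and 11.9 in untreated wild type. The full-length rescues of HCT116 gave 7.08, 5.91 and 14.8 at that depth, and the p140 rescues 38.2, 10.3 and 15.4. With the subtraction, p140 replicate 1 gave 9.67. HEK293E libraries gave 0.643 to 5.22.

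Within the region the reads came from the block. In 9.1% FBS it held 2338 of 2354 cluster reads and in 0.1% FBS 1738 of 1748, and in untreated wild type it held 100 of 101. The 10 upstream members opposite RTL1 had 10 reads in 9.1% FBS and 7 in 0.1% FBS. Among them miR-127-3p, whose hairpin is complementary to the RTL1 message, had 0, 3 and 2 reads in 9.1% FBS and 0, 2 and 1 in 0.1% FBS. It was read in 7 of the 20 libraries, with 11 reads in all, and miR-370-3p was read in 1 library.

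**Figure D3:**
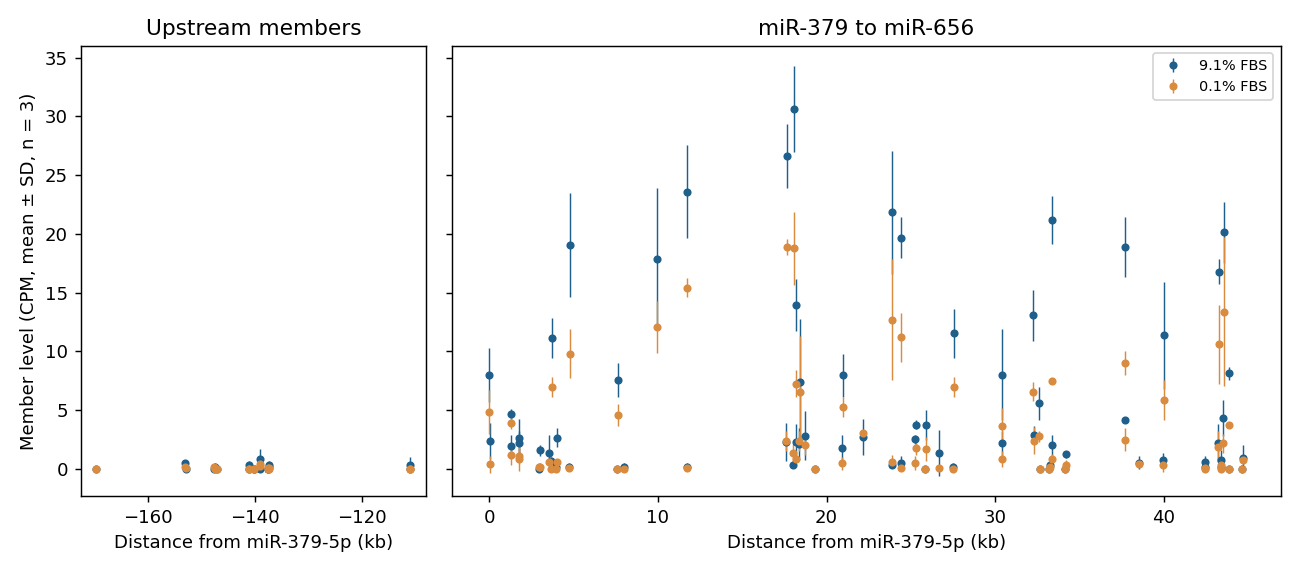
Mean CPM of each member (± SD, n = 3) in 9.1% and 0.1% FBS against its distance in kb from miR-379-5p, with the upstream members on the left. Levels inside the block ran from 0 to 30.6 CPM (miR-376a-3p), with abundant and unread members side by side, and the upstream members stayed near 0.

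Members of the block differed widely among themselves. The highest in 9.1% FBS was miR-376a-3p with 26.9, 34.2 and 30.6 CPM, followed by miR-376c-3p with 23.5, 28.4 and 28.0. These belong to a family known for adenosine-to-inosine editing. After these came miR-495-3p with 26.9, 24.6 and 19.2 CPM. The spreads of these 3 members overlapped.

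Next came miR-381-3p (21.8 ± 5.23 CPM), miR-485-3p (21.2 ± 2.02), miR-369-3p (20.1 ± 2.57), miR-487b-3p (19.7 ± 1.75), miR-329-3p (19.1 ± 4.43), miR-154-3p (18.9 ± 2.53) and miR-543 (17.9 ± 6.03), each as mean and SD over n = 3 libraries. Neighbours in this order did not differ beyond their spread. The 10 members together held 51.7% of the cluster's reads in 9.1% FBS. The block's best-studied neuronal member, miR-134-5p, which limits dendritic spine size through the kinase LIMK1, was at 5.61 ± 1.41 CPM (SD, n = 3), and miR-410-3p, in the MEG9 exon, at 8.13 ± 0.57.

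Spearman's rho of member reads with 9.1% FBS over the 92 members was 0.93 for 0.1% FBS, 0.71 for untreated wild type, 0.79 for the full-length rescue of HCT116 and 0.71 for its p140 rescue after the subtraction. These values describe the libraries only, as the members share libraries and many have few or no reads. In untreated wild type the members with the most reads were miR-376c-3p (11 reads), miR-369-3p and miR-381-3p (9 each) and miR-409-3p (7).

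The 3p arm gave most reads of most hairpins. Both arms are listed for 44 hairpins, and 30 of these had 20 or more reads over the serum libraries. In 25 of the 30 the 3p arm held over 50% of reads, and in 16 it held over 90%, such as miR-495 (239 of 241 reads) and miR-494 (75 of 75). The 5 with more 5p reads were miR-379 (17.2% 3p, interval 10.2% to 26.4%), miR-411 (26.4%), miR-299 (47.5%), miR-382 (22.2%) and miR-134 (0 of 51 reads, interval up to 6.98%). Of these, miR-379, miR-411 and miR-299 are neighbours at the block's upstream end, and miR-382 and miR-134 are neighbours farther downstream.

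Arm use overlapped between both serum levels. The 3p share of cluster reads was 81.2%, 83.4% and 84.2% in 9.1% FBS and 80.3%, 82.4% and 85.1% in 0.1% FBS, with means of 82.9% ± 1.51 and 82.6% ± 2.38 (SD, n = 3 each), and the groups overlapped. In HCT116 cells with full-length DROSHA it was 86.9% ± 0.84 (SD, n = 3), and in untreated wild type 84.2% (interval 75.6% to 90.7%).

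**Figure D4:**
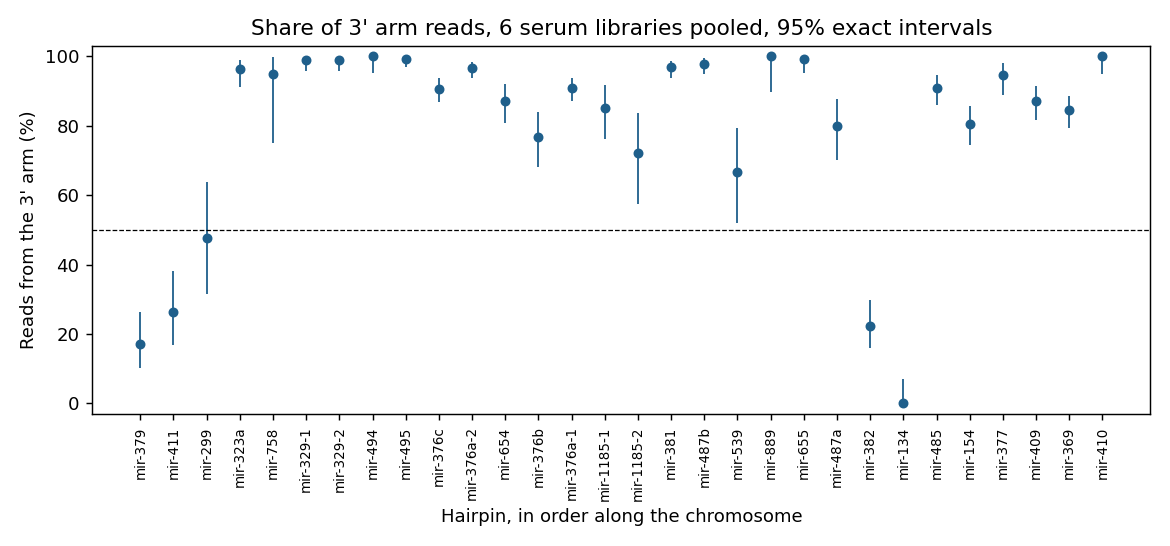
Share of reads from the 3p arm (percent) for the hairpins with 20 or more reads, pooled over the 6 serum libraries and ordered along the chromosome, with 95% exact intervals. Most lie above the dashed 50% line, and miR-379, miR-411, miR-299, miR-382 and miR-134 lie below it.

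With all libraries in, the serum comparison was the one in which members passed the filter on low counts (edgeR's filterByExpr, minimum count 10). Serum starvation stops most cultured cells from dividing, and the labels name the 0.1% condition as starvation. The summed cluster level was 1.73 times lower in 0.1% than in 9.1% FBS, and all 3 starved libraries lay below all 3 fed ones. Within replicate numbers the ratio of 0.1% to 9.1% was 0.546, 0.558 and 0.633. The size of this fall depends on the scaling. With TMM scaling (edgeR's factors, which set the bulk of miRNAs level) the sums were 369 ± 19.7 and 284 ± 28.3 CPM (SD, n = 3 each), 1.30 times lower and still without overlap. On the plain CPM scale the median log2 change of the 577 miRNAs tested was -0.45, against -0.03 with TMM, a shift of -0.41.

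After this filter, 22 of the 92 members entered edgeR's quasi-likelihood test, with 71 to 304 reads each over the 6 libraries. They held 81.6% of the cluster's reads there, and they are the abundant members, not all of them. Of these 22, 2 fell and 0 rose at an adjusted p under 0.05 (Benjamini-Hochberg over all 577), where 45.8% of all tested miRNAs were called, 20.3% lower and 25.5% higher. An unadjusted p under 0.05 was found for 4, where 52.2% of all tested had one. Over all miRNAs 147 rose and 117 fell, and scaled to the DROSHA-independent list 22 rose and 242 fell. The median log2 fold change was -0.34 over the 22 members and -0.03 over all tested, and 21 of the 22 values were negative, against 52.3% of all tested.

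The larger change was that of miR-485-3p, the partner strand of a miRNA that limits synaptic vesicle protein levels in neurons. It had 23.5, 19.8 and 20.2 CPM in 9.1% FBS (41, 37 and 39 reads) and 7.36, 7.42 and 7.80 in 0.1% FBS (13, 18 and 22 reads). All starved libraries were below all fed ones, with a gap wider than the spread within either group. The fall was 1.07 ± 0.21 on the log2 scale (edgeR, adjusted p = 0.0034). The call held under all 12 alternatives that were run, with adjusted p between 0.000167 and 0.020. Its seed partner miR-539-3p had 6, 7 and 8 reads against 3, 3 and 7 and was not tested.

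For miR-154-3p the levels were 17.8, 17.1 and 21.8 CPM in 9.1% FBS and 7.92, 9.90 and 9.21 in 0.1% FBS. The groups did not overlap, and the member fell by 0.65 ± 0.22 on the log2 scale (edgeR, adjusted p = 0.040). This call was lost when any of the 6 libraries was left out (adjusted p 0.054 to 0.107), with DESeq2 (0.131), without the filter (0.180) and with a minimum count of 3 (0.075), and over all alternatives the adjusted p ran from 0.011 to 0.180. Its seed partner miR-487a-3p had 4.01, 11.8 and 8.30 CPM against 2.26, 3.30 and 5.31, which overlapped, with a log2 change of -0.68 ± 0.46 (adjusted p = 0.264).

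The other 20 members tested did not pass the threshold. The nearest were miR-410-3p, with 8.59, 7.49 and 8.30 CPM in 9.1% FBS against 3.96, 3.71 and 3.54 (log2 change -0.71 ± 0.27, edgeR adjusted p = 0.078), and miR-382-5p, with 15.5, 12.3 and 11.4 against 5.66, 7.01 and 7.09 (-0.55 ± 0.24, adjusted p = 0.096). Both were without overlap between the groups, but miR-410-3p passed the filter only through its 9.1% FBS libraries. In CPM, 14 of the 22 members had groups that did not overlap and were lower in 0.1% FBS, where 46.8% of all tested miRNAs did so.

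Neither of the most abundant members passed. In 0.1% FBS miR-376a-3p was at 17.5, 16.5 and 22.3 CPM (log2 change -0.29 ± 0.21 with TMM, adjusted p = 0.294) and miR-376c-3p at 18.1, 19.4 and 19.1 (-0.09 ± 0.19, adjusted p = 0.730). In CPM both were below all fed libraries. Of the remaining tested members, miR-329-3p, miR-654-3p, miR-377-3p, miR-487b-3p, miR-381-3p, miR-655-3p, miR-379-5p, miR-494-3p, miR-323a-3p, miR-409-3p, miR-1185-1-3p, miR-495-3p and miR-543 had log2 changes from -0.56 to -0.17.

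In a pair of members replicate 3 stood apart. Reported to bind the AU-rich element of the TNF message in serum-starved cells, miR-369-3p had 17.2, 21.9 and 21.3 CPM in 9.1% FBS and 8.49, 11.1 and 20.6 in 0.1% FBS. The groups overlapped through the last library, and the log2 change was -0.14 ± 0.33 (edgeR, adjusted p = 0.756). The only positive value among the 22 was that of miR-376b-3p, at 0.29 ± 0.60 (adjusted p = 0.725). It had 3.44, 5.35 and 13.5 CPM in 9.1% FBS and 3.96, 3.71 and 12.05 in 0.1% FBS, so replicate 3 was the highest under both conditions.

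The 70 members that did not enter the test held 443 reads in 9.1% FBS and 310 in 0.1% FBS. Their summed level was 79.9 ± 0.44 and 44.1 ± 0.50 CPM (SD, n = 3 each), without overlap on this scale, which carries the shift of the median given above. The neighbours of the region on chromosome 14, miR-345, miR-342 and miR-151b, were at 1366 ± 56.1 and 1633 ± 104 CPM. They differed among themselves, with log2 changes (edgeR, TMM) of 1.14 for miR-151b, 0.56 for miR-345-5p, 0.15 for miR-342-3p and 0.09 for miR-342-5p. Marker lists also differed between the conditions. The 9 blood miRNAs had reads for 7 to 8 members in each library and summed to 58.8 to 77.8 CPM in 9.1% FBS and 205 to 222.9 in 0.1% FBS, with miR-223-5p at 0 in the latter. Most of the rise lay in miR-486-5p (63 of 5542498 reads in 9.1% FBS, 583 of 7014938 in 0.1% FBS) and miR-142-3p (134 and 519). Other blood miRNAs fell, with miR-223-3p at 31 and 9 reads and miR-150-5p at 36 and 18. The 16 miRNAs of pluripotent cells summed to 20.1 to 26.5 CPM in 9.1% FBS and 2.48 to 4.54 in 0.1% FBS. Reads were seen for 10 to 13 of them per library in 9.1% FBS and for 5 to 6 in 0.1% FBS, where miR-302c-3p and miR-367-3p were at 0. Their part in the change of the cluster was not tested.

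**Figure D5:**
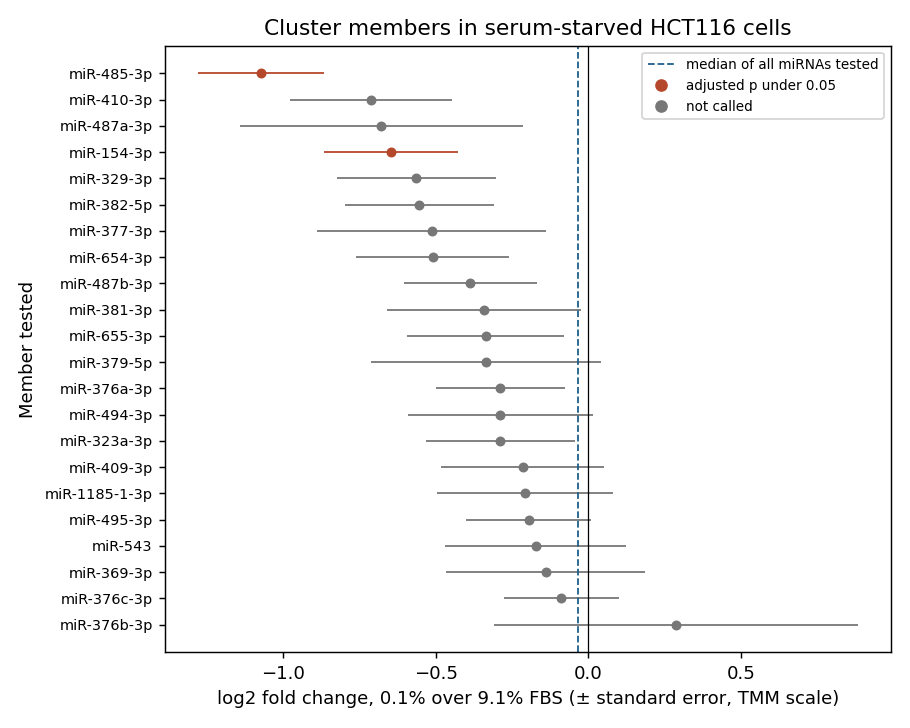
log2 fold change (0.1% over 9.1% FBS, TMM scale) of the 22 members tested, with standard errors as bars (n = 3 libraries per group). Red points are miR-485-3p and miR-154-3p, called at an adjusted p under 0.05, and the dashed line is the median of all 577 miRNAs tested, at -0.03.

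The comparison of p140 with full-length DROSHA asks, from the series title, about the part of DROSHA that lies outside p140 in the processing of intronic miRNAs. None of the 92 members passed the filter in HCT116 (446 miRNAs tested, 59.6% called in either direction) or in HEK293E (416 tested, 26.4% called, 110 miRNAs, or 183 with the replicate number as a block). With edgeR and no filter, 1 of 78 members was called higher in HCT116, where 6.91% of all miRNAs were, and 4 had an unadjusted p under 0.05, where 28.6% of all had one. After the subtraction it was 0 of 46, where 129 of 1792 miRNAs were called higher, again with 4 at an unadjusted p under 0.05 (29.1% of all). In HEK293E it was 0 of 19 on both counts. There 22 of 1698 miRNAs were called higher and 106 lower, and 14.5% of all had an unadjusted p under 0.05. With the filter DESeq2 had no members to test either.

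In HCT116 cells the summed level with p140 was 2.23 times that with full-length DROSHA, and the groups overlapped. After the subtraction in p140 replicate 1 the ratio was 1.33. By replicate number the ratios of p140 to full-length were 5.73 (1.57 after the subtraction), 1.84 and 1.07. These are ratios of CPM, and their direction depends on the scaling. The DROSHA-independent list had 100200 reads with full-length DROSHA, beside 211 of the cluster. With p140 it had 145428, beside 186 (112 after the subtraction), so per read of the list the cluster was lower with p140. Scaled to that list, 0 of 446 miRNAs were called higher and 170 lower. The member called without the filter was miR-379-5p, the first hairpin of the block, with 1, 0 and 0 reads with full-length DROSHA and 3, 1 and 3 with p140 (adjusted p = 0.041). It rests on 8 reads, and after the subtraction, with 2, 1 and 3 reads with p140, it was no longer called (adjusted p = 0.075).

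The members with the most reads in these libraries were miR-376c-3p, with 4, 3 and 10 reads with full-length DROSHA and 3, 1 and 7 with p140, and miR-369-3p, with 3, 7 and 7 against 3, 4 and 0. With full-length DROSHA miR-495-3p had 2, 0 and 11 reads and miR-376a-3p 0, 1 and 8, most of them in replicate 3. With p140 miR-495-3p had 4, 2 and 1 reads and miR-376a-3p 1, 2 and 4, where replicate 1 is the library with the run. With a minimum count of 3, 6 members were tested in HCT116 and none was called, where 50.4% of 677 miRNAs were, with 0 at an unadjusted p under 0.05, where 58.3% of all had one. In HEK293E cells the p140 to full-length ratio of the sums was 1.47, with overlapping groups, and by replicate number it was 1.66, 0.979 and 4.09. The DROSHA-independent list there had 88582 reads with full-length DROSHA, beside 15 of the cluster. With p140 it had 98770, beside 17, so per read of the list the forms were close.

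Between the lines the cluster was lower in HEK293E than in HCT116 for both forms. With full-length DROSHA the sum was 4.27 times lower and with p140 6.48 times lower, or 3.86 after the subtraction, and in neither did the libraries overlap. With TMM scaling the ratios were 8.63 and 12.3 (7.14 after the subtraction), so that the log2 ratio moved from -2.09 to -3.11 and from -2.70 to -3.62 by the scaling alone. No member passed the filter among 515 miRNAs tested, where 61.9% were called for full-length DROSHA and 55.3% for p140. The same was so of the interaction of line and form, where 3.3% were called. Without the filter edgeR called 7 of 79 members lower in HEK293E with full-length DROSHA, where 9.54% of all miRNAs were called lower, and 14 had an unadjusted p under 0.05, against 27.7% of all. With p140 3 were called lower, where 8.52% of all were, and 12 had an unadjusted p under 0.05, against 24.1% of all. After the subtraction 7 of 49 and 1 of 49 were called, where 9.69% and 8.54% of all were called lower. For the interaction 0 were called and 0 had an unadjusted p under 0.05, with and without the subtraction. Of all 2043 miRNAs in that unfiltered fit 13 were called higher and 5 lower. An unadjusted p under 0.05 was found for 8.17% of them (8.35% of all after the subtraction).

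The 7 members were miR-329-3p, miR-376a-3p, miR-376c-3p, miR-381-3p, miR-409-3p, miR-495-3p and miR-654-3p, and each had 0 reads in the 3 HEK293E full-length libraries together. The limit of 3 reads over that group was 3.78 CPM. In HCT116 miR-376c-3p, with 17 reads (6.99 CPM), was at 1.85 times this limit, and miR-654-3p, with 14 reads, at 1.52 times. These ratios leave out the counting error of the HCT116 reads, so they are not lower bounds of the difference. They lean on full-length replicate 3, without which that of miR-376c-3p was 1.11, from 7 reads, and that of miR-654-3p 1.27. For miR-376a-3p and miR-381-3p, with 9 reads each, the level in HCT116 was itself under this limit. With p140 the 3 members were miR-376a-3p, miR-376c-3p and miR-495-3p. In HCT116 miR-376c-3p was at 2.21 times the limit of the HEK293E p140 libraries, 5.30 CPM. That ratio was 2.01 after the subtraction and 1.23 without p140 replicate 3. After the subtraction only miR-376c-3p of these 3 was still called (adjusted p = 0.0094), while miR-495-3p (0.067) and miR-376a-3p (0.073) were not.

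The member with the most HEK293E reads was miR-369-3p. It had 0, 1 and 2 reads with full-length DROSHA and 1, 4 and 3 with p140, 11 of the 32 cluster reads. Next were miR-154-3p, miR-1185-1-3p and miR-494-3p with 2 reads each. The other 15 members seen, among them miR-654-3p and miR-127-3p, had 1 read each. Only miR-369-3p could be tested with a minimum count of 3. It was 1.96 ± 0.85 lower on the log2 scale in HEK293E with full-length DROSHA, which did not pass (edgeR, adjusted p = 0.060), and the difference was 0.01 ± 0.82 with p140 (adjusted p = 1.00). The interaction was 1.97 ± 1.20 (adjusted p = 0.442), so the lines' responses of this member were not shown to differ. After the subtraction the difference between the lines was -1.96 ± 0.84 with full-length DROSHA (adjusted p = 0.059) and 0.23 ± 0.85 with p140 (adjusted p = 0.859), and the interaction 2.18 ± 1.21 (adjusted p = 0.391).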

How the data were processed

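Small RNA counts of 20 libraries were analysed. Per the labels' protocols, TRIzol RNA was mixed with spike-in RNAs, size-selected, ligated to adaptors with random bases and run on a MiSeq. The tools cutadapt, STAR and bedtools and the build hg38 are named in the submitters' processing notes. Not given in the sources used here are the tools' versions, the miRNA annotation, how reads were handled that map to several places or span gaps, and whether random adaptor bases served to collapse reads. The values the authors deposited are raw counts of reads, with 1 row for each mature miRNA of each hairpin and 2813 rows per library. Scaling to spike-ins was not possible, as the rows name miRNAs only.

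For miRNAs listed under several hairpins the copy with the most reads was kept. CPM were computed on the resulting totals. Groups and replicate numbers come from the sample titles. Counts of all miRNAs were tested with the two-sided quasi-likelihood F test of edgeR 4.0.16 under R 4.3.3, after TMM scaling and filterByExpr (minimum count 10). P-values were adjusted by Benjamini-Hochberg and called under 0.05. The p140 and serum comparisons used their own 6 libraries, and the lines and the interaction used the 12 rescued libraries. DESeq2 1.42.0, no filter, a minimum count of 3, summed copies, scaling to 20 DROSHA-independent miRNAs, a replicate block and leaving out each library were alternatives. Subtraction of 1 read per block row in HCT116 p140 replicate 1, alone or with another filter or scaling, was chosen after seeing the data. The edgeR test with TMM and the filter was tried on simulated counts modelled on the serum libraries. The sums, intervals and alternative fits were not part of that trial. Sums over members have no test.

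Same-numbered libraries deviated together from their group means, with correlations of 0.47, 0.36 and 0.68 in HCT116, 0.56, 0.35 and 0.37 in HEK293E and 0.26, 0.15 and 0.67 in the serum experiment, so the numbers may pair the samples. Replicates 1 and 2 were not told apart by this, since across them the correlations were 0.30 and 0.37 in HCT116 and 0.48 and 0.26 in the serum experiment. The main fits are unpaired, and the block on replicate number is an alternative. For p140 in HCT116 127 miRNAs were called higher and 139 lower, and 157 and 169 with the block. In HEK293E these were 22 and 88, and 70 and 113 with the block. The serum comparison had 147 and 117, and 192 and 175 with the block.

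Members named in full are those tested in any fit, the 8 with the most reads in each line, and up to 4 in the wild-type and GFP libraries. The members, marker lists and tests were chosen with earlier results of these data known. Sequences are RefSeq's for GRCh38.p14 and gene models GENCODE 29, both on the build of the files. Intervals use a confidence level of 95% and cover counting error only. Whether the reads stand for separate molecules is not known, since the use of the random adaptor bases is not given. Precision is set by depth: 38288 reads in the GFP library, 135085 to 873717 in the rescued and untreated libraries and 1745625 to 2822317 in the serum libraries.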

Additional observations from a re-analysis of the deposited data

How the results depend on the processing

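In the serum comparison 2 of 22 members were called. With DESeq2 it was 1 of 22, where 17.5% of all tested were called lower. Without the filter it was 1 of 77 (6.53% of all lower), and with a minimum count of 3 it was 1 of 40 (14.6%). When each library was left out 1 of 21 to 23 was called (13.7% to 23.3% of all lower). DROSHA-independent scaling gave 12 of 22. It moves the median of all miRNAs to -0.67 and the share of all called lower from 20.3% to 41.9%. With the replicate block 2 of 22 were called, where that share was 30.3%. The block changed no other call of a member. Of 261 results of single members under alternatives, 237 kept direction and side of the threshold, 10 gained the threshold, 9 lost it and 5 reversed. The reversals were miR-376b-3p (0.29) at -0.34 with DROSHA-independent scaling and -0.10 without 9.1% FBS replicate 1 (-0.10 to 0.63 over all libraries left out), miR-543 (-0.17) at 0.15 without 9.1% FBS replicate 2 (-0.37 to 0.15), and miR-369-3p (-0.14) at 0.061 and 0.05 without 0.1% FBS replicates 1 and 2 (-0.65 to 0.061). Without the filter more members enter the test, and 1 of 78 was called for p140 against full-length DROSHA in HCT116 (6.91% of all higher). For HEK293E against HCT116, 7 of 79 were called with full-length DROSHA (9.54% of all lower) and 3 of 79 with p140 (8.52%). With the subtraction and no filter these were 0 of 46, 7 of 49 (9.69%) and 1 of 49 (8.54%). The log2 ratio of sums in the serum comparison was -0.79, and -0.38 with TMM. Between the lines with p140 it was -2.70, and -3.62 with TMM and -1.95 after the subtraction. Leaving out each library gave 0.57 to 1.86 for p140 in HCT116, where p140 replicate 1 and full-length replicate 3 mattered most, 0.12 to 1.36 in HEK293E, -0.86 to -0.73 for serum, -2.90 to -1.40 between the lines for full-length DROSHA and -3.03 to -2.10 for p140. Where no construction is named, the cause was not tested. Depth limits the rescued libraries most, where 3 reads are worth 3.43 to 22.2 CPM.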

Other observations

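Other imprinted miRNAs gave further values beside the cluster, with no test. The MEST miRNA miR-335 (both arms summed) was at 1041 ± 56.2 CPM in 9.1% FBS and 408 ± 28.3 in 0.1% FBS (SD, n = 3 each), and at 22.0 ± 4.51 in HEK293E against 353 ± 149 in HCT116 with full-length DROSHA. The GNAS-locus miRNAs miR-296 and miR-298 showed the opposite order of lines, with 567 ± 66.8 CPM in HEK293E and 9.75 ± 5.19 in HCT116. The IGF2 miRNA miR-483 was at 155 ± 41.4 and 291 ± 44.8 CPM, and the H19 miRNA miR-675 at 10.4 ± 14.4 and 13.2 ± 2.77. The 62 miRNAs of the chromosome 19 cluster, the other large imprinted miRNA cluster, summed to 0.573, 14.4 and 20.8 CPM in 9.1% FBS and 9.62, 12.8 and 4.96 in 0.1% FBS. In the first group 1, 25 and 36 of the 62 had a read, and the last library is the one with the longer run of single reads on chromosome 19. Replicate 2 of that group also had a run there, of 39 rows with 20 at exactly 1 read, ending at miR-520a-3p within this cluster. In HCT116 cells the sum was 40.2 ± 24.99 CPM for full-length DROSHA and 73.8 ± 15.2 for p140.

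The muscle and neural list was at 2494 ± 797 CPM in 9.1% FBS and 1911 ± 488 in 0.1% FBS, nearly all of it miR-9, and the liver list (miR-122) at 0.739 ± 0.641 and 0.601 ± 0.619.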
